A study of Homo sapiens with 4 samples.

Results

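GSK3B, DVL2 and MAML1 are 3 signalling genes whose mRNAs carried called m7G peaks in HepG2, a human hepatocellular carcinoma cell line. N7-methylguanosine (m7G) is the nucleoside of the mRNA cap and also occurs inside transcripts. The members were chosen by gene name from the authors' peak lists, with their folds already known, so their presence and folds are a description and carry no test. They account for 9 of the 8102 peaks in both lists together, 4 of the 3355 peaks of immunoprecipitation (IP) replicate 1 and 5 of the 4747 peaks of IP replicate 2. The study profiled untreated HepG2 cells by m7G MeRIP-seq: an anti-m7G antibody captures modified stretches of poly(A) RNA, which are sequenced along with uncaptured input. It comprised 2 input samples, with no antibody, and 2 samples of m7G IP. The values described here are the peaks called in the 2 IP samples, where a peak is a stretch of mRNA for which the authors give a p-value and a fold enrichment. The labels do not say whether these came from separate cultures, and read depth is unknown from the lists.

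Glycogen synthase kinase 3 beta, the product of GSK3B, phosphorylates beta-catenin within the destruction complex built on Axin and APC, which marks it for degradation. Dishevelled proteins, DVL2 among them, relay the Wnt signal from Frizzled receptors at the membrane and interfere with that complex. MAML1 acts in the nucleus, where the cleaved Notch intracellular domain and the DNA-binding protein RBPJ recruit it as a coactivator that brings in the acetyltransferase EP300. In hepatocytes, Wnt signalling is known for the zonation of metabolism and Notch signalling for the biliary fate.

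Each of the 3 genes had a peak near its annotated 5' end in both lists. The stretch of transcript just before or at the edge of these peaks shows where they begin. The 3 sequences below are bases 21 to 50 of each transcript, counted from the RefSeq start (GRCh38.p14), read 5′ to 3′, with the bases inside the replicate 2 peak in capitals.
GSK3B, chr3:120094398-120094427, minus strand: cgggcgaatgCGGGCTTGTGCCGCCGCCGC
DVL2, chr17:7234468-7234497, minus strand: cggcgtcggtggcGGTGGCGCGCGGCGGCC
MAML1, chr5:179732842-179732871, plus strand: taagatggcggccgcggcggtagcgcggaa
The replicate 2 peak covered the last 20 of these bases in GSK3B, the last 17 in DVL2 and 0 in MAML1. The replicate 1 peak covered all 30 in DVL2 and 0 in GSK3B and MAML1. The stretches are rich in guanosine, which made up 13 of 30 bases in GSK3B, 17 in DVL2 and 14 in MAML1. Across the same 30 positions of 35116 RefSeq gene starts the median share of G was 33.3% (interquartile range 23.3 to 40%), and the DVL2 share, 56.7%, stood at percentile 97.3. The G shares of MAML1 (46.7%) and GSK3B (43.3%) stood at percentiles 86.4 and 80. The starts were also above the median in G and C together, taken over 250 bases before and 50 after the start. That share stood at percentile 78.4 for GSK3B, 72.6 for DVL2 and 62.7 for MAML1. The background holds all RefSeq gene starts, with or without a peak. A link between G and the peaks was not tested. These letters were read from the reference, and the peaks do not say which base carries m7G.

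GSK3B had 1 peak in each list, and the replicate 2 peak enclosed that of replicate 1 on both sides. In replicate 1 it lay on chromosome 3 (GRCh38, minus strand) from 120094057 to 120094327, a single block of 271 nt with a fold of 9.27. In replicate 2 it lay from 120093967 to 120094417, a single block of 451 nt with a fold of 9.78. The 5' edge of the peak was thus 120 nt inside the gene in replicate 1 and 30 nt inside it in replicate 2. The midpoint was 255 nt from the 5' end in both. The annotated gene spans 273127 nt, and nothing beyond the first 480 nt was called in either list. The folds stood at percentile 91.4 of replicate 1 and 91.5 of replicate 2. The strength of the call did not rank as high: the -log10 p was 5.64 in replicate 1 (percentile 51.3) and 9.35 in replicate 2 (percentile 80.3).

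MAML1 also had 1 peak in each list, and again the longer replicate 2 peak enclosed the other. In replicate 1 it lay on chromosome 5 (plus strand) from 179732910 to 179733060, a single block of 151 nt with a fold of 13.4. In replicate 2 it lay from 179732880 to 179733150, a single block of 271 nt with a fold of 31.6. Its 5' edge was 88 nt from the gene's start in replicate 1 and 58 nt in replicate 2, within a gene of 44462 nt. These were the highest folds of the 3 genes in each list, at percentiles 96.1 and 99.0. Both folds were tied, with 6 peaks at 13.4 in replicate 1 and 17 at 31.6 in replicate 2. Counted from the top of the tie, the ranks were 129 of 3355 peaks and 40 of 4747. The -log10 p was 6.78 (percentile 63.0) in replicate 1 and 10.0 (percentile 81.7) in replicate 2.

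DVL2 was the only member with more than 1 peak in a list. At its 5' end on chromosome 17 (minus strand), replicate 1 held a single block of 180 nt from 7234335 to 7234514 with a fold of 5.94. Its 5' edge was 3 nt from the annotated start. The replicate 2 peak there began 33 nt from the start and was spliced: it ran from 7234484 down to 7230409 with a fold of 5.48. Its 508 nt fell into 3 blocks. In the order of transcription these were 416 nt, 70 nt and 22 nt, parted by gaps of 3271 nt and 297 nt that the authors' transcript model leaves out. The 416-nt block contains most of the replicate 1 peak, and the 2 downstream blocks have no counterpart in replicate 1.

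Near the other end of DVL2, both lists held a single block with the same 5' edge, at 7226267. It was 239 nt long in replicate 1, from 7226029, and had a fold of 6.92. In replicate 2 it was 210 nt long, from 7226058, and had a fold of 5.93. The midpoints were 806 nt and 820 nt from the 3' end of the gene, so this peak lies on the opposite side of the gene from the first. Replicate 2 alone held another peak between them, from 7227987 to 7229149. It had 150 nt in blocks of 15, 77 and 58 nt in the order of transcription, with gaps of 89 nt and 924 nt, and a fold of 4.33. That peak was the weakest of the 9, with a -log10 p of 4.16 (percentile 31.8 of its list). Whether a block is coding or untranslated was not analysed here, as no exon models were used.

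**Figure D1:**
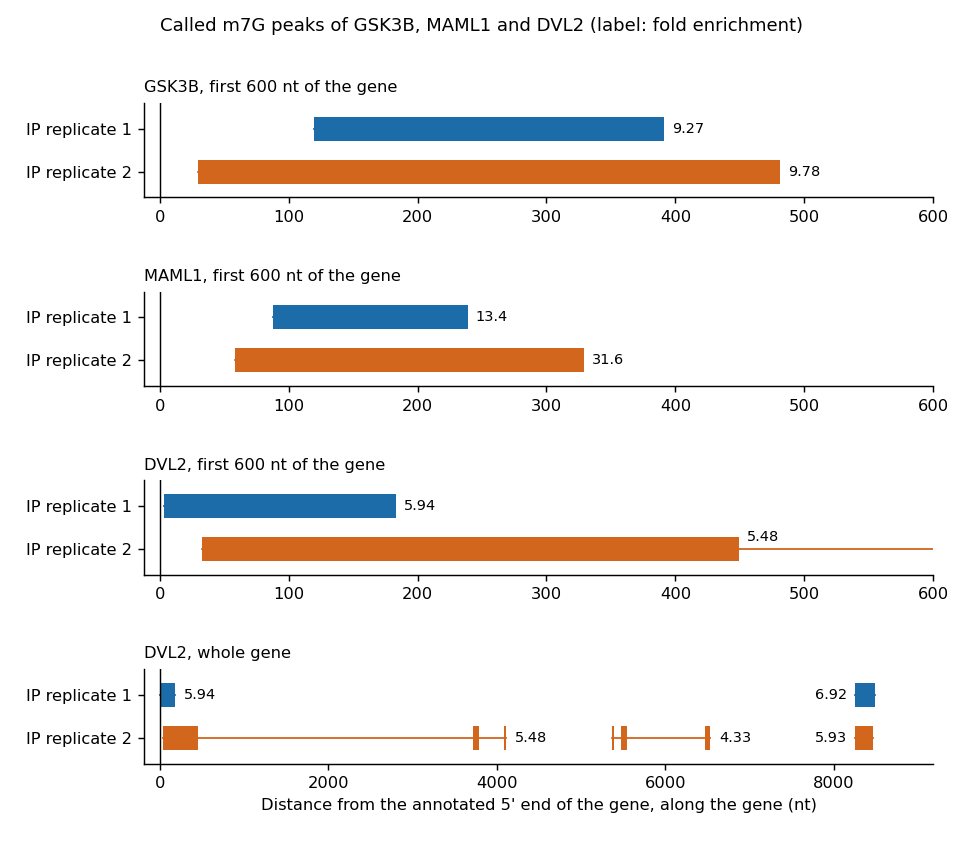
Called m7G peaks of GSK3B, MAML1 and DVL2 by distance from the annotated 5' end of the gene in nt, replicate 1 in blue and replicate 2 in orange. Bars are deposited blocks, and thin lines join the blocks of a spliced peak. The number beside each peak is its deposited fold. All 3 genes have a peak that begins within 120 nt of the 5' end in both lists, and DVL2 has further peaks downstream.

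The position of the first peak was shared by the 3 genes although they differ in length from 9176 nt for DVL2 to 273127 nt for GSK3B. All 3 had the 5' edge of a peak within 200 nt of the gene's 5' end in each list, where 47.3% of the genes of replicate 1 and 44.5% of those of replicate 2 had such a peak. In both lists the same held for 881 of the 1944 genes with a peak in both lists and a matched RefSeq span (45.3%), and for 39.8% of shared peaks, so this position is common among genes with called peaks. None of the 9 peaks overlapped the span of another annotated gene. The sources used here do not say whether the cap was removed before the IP, so m7G of the cap and internal m7G cannot be told apart at these peaks.

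The comparison of the IP samples asked how closely the lists placed the same peaks. All 3 genes had peaks in both lists, and so had 51.7% of the 3769 genes that either list names. They also had peaks in both when only the better 50% of each list by p was kept, where the share over all genes was 50.1%. All 3 also had a shared peak, defined as blocks that overlap by 50% or more of the length of the shorter peak, against 45.3% of those genes. In GSK3B, MAML1 and the 3'-side peak of DVL2 the overlap took in 100% of the shorter peak. At the 5' end of DVL2 it was 150 nt, or 83.3% of the shorter. Of the longer peak it covered 87.9% for the 3'-side peak of DVL2, 60.1% for GSK3B, 55.7% for MAML1 and 29.5% for the 5'-end peak of DVL2. A requirement of 80% of both peaks left only DVL2, against 19.3% of those genes.

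The 5'-end peaks of all 3 genes were longer in replicate 2. The ratio of lengths, replicate 2 over replicate 1, was 1.66 for GSK3B, 1.79 for MAML1 and 2.82 for DVL2. Over all 2128 shared peaks the median ratio was 1.10 (interquartile range 0.858 to 1.5), so these 3 peaks lay above the upper quartile. The 3'-side peak of DVL2 went the other way, with a ratio of 0.879.

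The folds of GSK3B and DVL2 were close between the lists and that of MAML1 was not. The fold in replicate 2 was 1.06 times that of replicate 1 for GSK3B, 0.857 times for the 3'-side peak of DVL2 and 0.923 times for its 5'-end peak. On the log2 scale these ratios were 0.08, -0.22 and -0.12. They lie within the middle range of all shared peaks, whose log2 ratio had a median of 0.05 and quartiles of -0.25 and 0.39. For MAML1 the replicate 2 fold was 2.36 times the replicate 1 fold (log2 ratio 1.24). A rise of more than 2 times was found in 137 of the 2128 shared peaks (6.44%). The order MAML1, GSK3B, DVL2 held in both lists. The differences between the genes were not tested. The headers do not name the libraries behind each fold, and whether the lists share an input is not known.

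**Figure D2:**
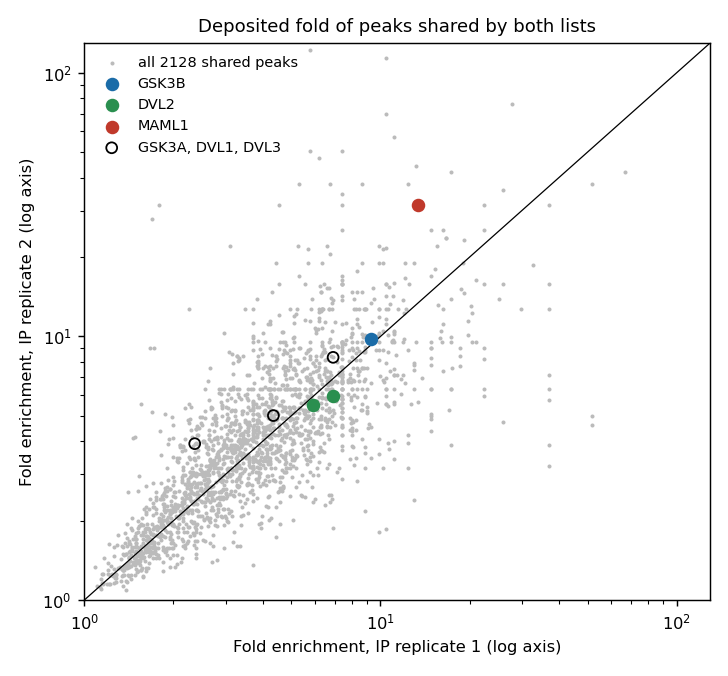
Deposited fold enrichment of the 2128 shared peaks in IP replicate 1 (x, log axis) and replicate 2 (y, log axis), with the line of equality; each point is a peak. GSK3B and both peaks of DVL2 lie near the line, and MAML1 lies above it with 13.4 and 31.6; open circles are the related genes GSK3A, DVL1 and DVL3.

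Ranked within their own lists, the peaks of the 3 genes stood higher by fold than by p-value. All 9 folds were above the medians of their lists, 3.71 in replicate 1 and 3.87 in replicate 2. The DVL2 peaks had fold percentiles from 57.6 to 83.0. The 5'-end peak of DVL2 had a -log10 p of 4.95 in replicate 1, below the median of 5.50, and of 5.26 in replicate 2, just above the median of 5.07. Among peaks within 25% of its own length, its mean fold percentile over the lists was 64.4, against 74.1 among all peaks.

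**Figure D3:**
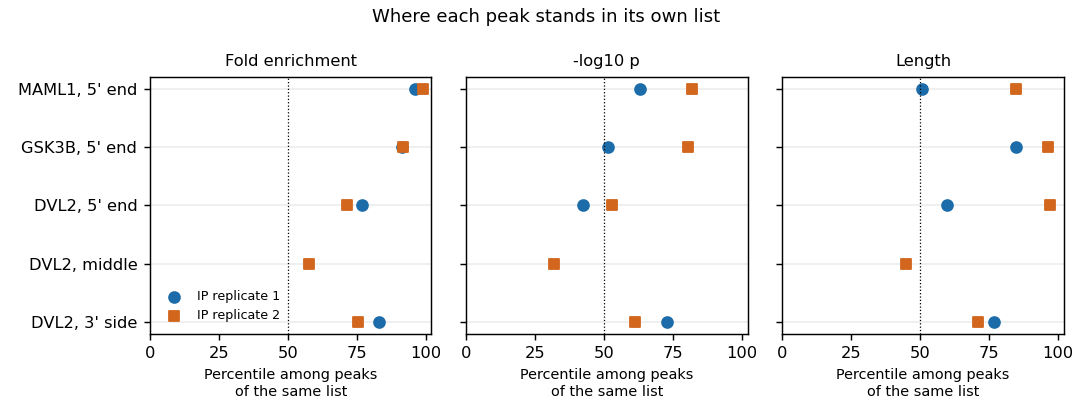
Percentile of each peak of MAML1, GSK3B and DVL2 among all peaks of its own list, for fold enrichment, -log10 p and length; circles are IP replicate 1, squares IP replicate 2, and the dotted line marks the list median. MAML1 and GSK3B are above percentile 91 by fold in both lists, while GSK3B is at 51.3 by -log10 p in replicate 1; the middle DVL2 peak was called in replicate 2 alone.

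The closest relatives of the 3 genes did not share a pattern of peaks. GSK3A, the other GSK3 kinase, had a single peak with the same boundaries in both lists, on chromosome 19 from 42240096 to 42242584. It was 449 nt long in 2 blocks, began 18 nt from the 5' end and had folds of 6.92 and 8.33, below both folds of GSK3B. Its -log10 p, 59.9 and 67.7, exceeded that of every peak of GSK3B, DVL2 and MAML1. Both GSK3 genes thus had their called peak at the 5' end.

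The Dishevelled genes differed in where their shared peaks lay. DVL1 had a shared spliced peak on the 3' side, with midpoints 1118 nt and 954 nt from the 3' end and folds of 4.35 and 5.01. Replicate 1 held a further DVL1 peak there, 61 nt from 1335964 to 1336024, at a fold of 2.47. It lies inside the replicate 2 peak, which was matched to the longer replicate 1 peak. A DVL1 peak of 61 nt near its 5' end, with an edge 306 nt inside the gene, was called in replicate 2 alone at a fold of 1.76. DVL3 had folds of 2.36 and 3.92 at a peak with midpoints 3292 nt and 3068 nt from the 3' end, where the lists overlapped by only 31 nt. Among the 3 Dishevelled genes only DVL2 had a 5'-end peak in both lists. MAML2 and MAML3, the relatives of MAML1, had 0 peaks in either list. Low expression and missing m7G cannot be told apart from a missing peak.

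The wider pathways were described from a list of 94 Wnt genes and a list of 62 Notch genes. The lists were drawn up with earlier results of these data known, and the members are in them. Peaks in both lists were found for 17 Wnt genes, in replicate 1 alone for 3, in replicate 2 alone for 9 and in neither for 65. The 17 made up 58.6% of the 29 Wnt genes with any peak, against 51.7% of all genes with a peak. For Notch the counts were 10 in both lists, 2 in replicate 1 alone, 5 in replicate 2 alone and 45 in neither. The 10 made up 58.8% of the 17 with any peak. These shares are near the background, and genes without a peak can be unexpressed. Over all 20056 protein-coding genes of the RefSeq table, expressed or not, 18.7% had a peak in either list and 9.69% had peaks in both. The counts by role below are over all genes of a group, are to be set against those shares, and carry no test.

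Peaks were called in 0 of the 25 genes of Wnt ligands, R-spondins and Wnt secretion, and in 0 of the 5 Notch ligand and 4 Notch receptor genes. Wnt receptors and their regulators had 4 of 22 genes with peaks in both lists. LRP5, a Wnt co-receptor, had folds of 3.97 and 6.94 at its shared peak, and the receptor kinase RYK had 4.58 and 3.72. KREMEN1, a receptor for Dickkopf inhibitors, had 12.4 and 4.22, and ZNRF3, a ubiquitin ligase that removes Frizzled, had 8.66 and 4.07. RYK, KREMEN1 and ZNRF3 had the higher fold in replicate 1, and LRP5 in replicate 2. Of the secreted inhibitors only NOTUM, a deacylase of Wnt ligands, had peaks (4.49 and 5.19 at its highest shared peak).

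The group of Dishevelled and the destruction complex, which holds GSK3B and DVL2, counted 9 of 22 genes with peaks in both lists, these members included. AXIN1, the scaffold of the complex, had folds of 7.42 and 4.22 at a 5'-end peak with the same edge in both lists. The casein kinase genes CSNK1G2 (4.80 and 4.92) and CSNK1E (1.92 and 1.94) had nearly equal folds in the lists. The Dishevelled-binding NKD1 had 4.09 and 3.16. Among shared peaks of this group GSK3B had the highest fold in each list. The tankyrase gene TNKS2, with a peak in replicate 2 alone, had a higher fold there, 14.2; it was named after its value was seen. Among nuclear genes, 3 of 15 had peaks in both lists: the TCF transcription factor TCF7 (6.13 and 2.97), the PHD finger coactivator PYGO2 (3.71 and 9.49) and the corepressor TLE3 (4.27 and 5.27).

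In the Notch list, MAML1 was the highest gene by shared fold in both lists. Other nuclear genes with a shared peak included the acetyltransferases CREBBP (3.83 and 5.06) and KAT2A (4.30 and 3.60). The kinase gene CDK8 had a peak in each list (2.43 and 4.40), and these did not overlap. EP300, whose product MAML1 recruits, had a peak in replicate 2 alone (fold 7.38). Outside the nucleus, the protease gene FURIN had 4.28 and 2.05. The ligases MIB1 and MIB2, which act on Notch ligands, had 4.17 and 4.92, and 2.51 and 3.99. A further MIB2 peak in replicate 1, not shared, had a fold of 13.4, the same value as MAML1 there. The HES family genes HES4 (6.64 and 6.33) and HES6 (2.97 and 3.51) also had shared peaks.

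Genes with a peak in a single list included AXIN2 (2.33), BCL9L (highest fold 4.38) and CSNK1G3 (7.23) in replicate 2 and CTNNBIP1 (6.36) in replicate 1. In the Notch list they included ADAM10 (4) and DTX3 (2.78) in replicate 2 and APH1A (highest fold 1.73) in replicate 1. Across the 26 genes of both pathways with a shared peak, ranked by the fold of the highest shared peak, MAML1 ranked 1 in both replicates. GSK3B ranked 4 and 2, and DVL2 ranked 7 and 8. The median fold over all peaks of the Wnt list was 3.97 in replicate 1 and 4.07 in replicate 2, and of the Notch list 2.72 and 3.70, beside 3.71 and 3.87 for all peaks.

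**Figure D4:**
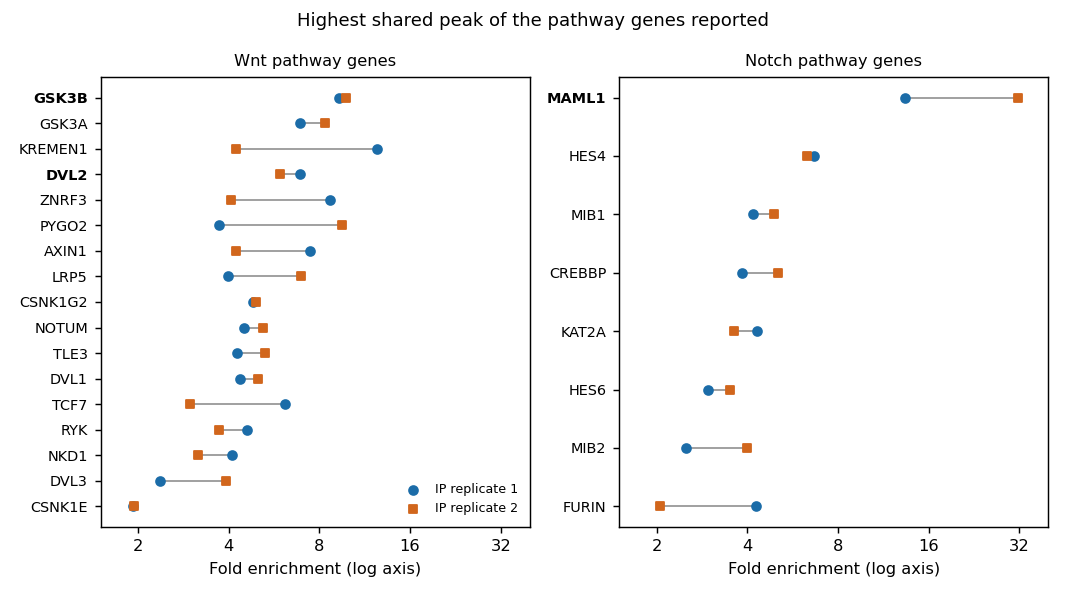
Fold enrichment (log axis) of the highest shared peak of Wnt genes (left) and Notch genes (right) reported here that had a shared peak; circles are IP replicate 1, squares IP replicate 2, and a line joins the values of a gene. GSK3B is the highest Wnt gene by the mean of log folds, with 9.27 and 9.78, and MAML1 the highest Notch gene, with 13.4 and 31.6.

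Genes whose shared peak had folds most like those of a member were found by the distance between log2 folds over the 2 lists. For GSK3B they were FXR2 (9.07 and 9.94), NFKB2 (9.40 and 9.49) and TOMM40 (9.48 and 9.49), at distances of 0.04 to 0.05. FXR2 and TOMM40 also had their peak at the 5' end, and the NFKB2 peak began 4663 nt inside its gene. For the 3'-side peak of DVL2 they were C11orf95 (7.07 and 5.69), WTAP (6.56 and 5.84) and CHRAC1 (6.55 and 5.80). For MAML1 they included FBXL19 (12.4 and 38.0) and PI4K2B (14.8 and 25.3). The likeness rests on 2 values per gene.

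The promoters of the 3 genes were compared because their first peaks begin near the gene's start. In the 250 bases before the RefSeq start, each held the letters of a CCAAT box once, as ATTGG on the gene's strand. The 3 matches are shown with ATTGG in capitals.
GSK3B, chr3:120094634-120094654, minus strand: cgtccgtgATTGGctccgttc
DVL2, chr17:7234589-7234609, minus strand: gtcacgtgATTGGgaggggat
MAML1, chr5:179732747-179732767, plus strand: cttctctgATTGGccagggcc
They begin 199, 84 and 67 bases before the start, in that order. CCAAT on either strand was found in 32% of the 35116 RefSeq promoters. The letters CACGTG, an E-box, occurred 3 times in DVL2 and 0 times in GSK3B and MAML1, against at least 1 match in 6.34% of promoters. The GC box letters GGGCGG, searched on both strands, occurred 2 times in GSK3B, 1 time in DVL2 and 4 times in MAML1 (42.6% of promoters had a match). TATAAA, also searched on both strands, had 0 matches in all 3 (10.7% of promoters). A match is a description of the letters, and the peak lists measure RNA, not binding at promoters.

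As a check of the cell type, 9 of 18 hepatocyte marker genes had peaks in both lists, with 2 of 6 immune and 1 of 6 endothelial and stellate markers. A called peak needs both expression and enrichment, so these counts do not measure cell types. Peaks in both lists were found in 9.69% of all protein-coding genes, and the marker counts were not tested against that share.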

How the data were processed

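Poly(A) RNA of HepG2 was sequenced as input and after m7G IP from stranded libraries, per the labels' protocols. The submitters' processing notes list the tool STAR and the build GRCh38, with no role or version stated. The caller is not named and its filters are likewise not given in the sources used here. Analysis started from the deposited peak lists, each from an IP sample, and the input libraries were not used here. Per the file headers, each deposited peak has a p-value, a log10 p and log10 FDR (used as scores, with the sign turned) and a fold (a ratio). These are the authors' values for each peak. The weakest deposited FDR had a -log10 of 1.32. Starts, counted from 0 in the files, were raised by 1.

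Members and lists were chosen with earlier results of these data known. Gene spans came from a RefSeq table of GRCh38.p14, matched by symbol or older symbol on the same chromosome (3352 and 4741 peaks; 3 and 6 unmatched), and CIR1 of the Notch list had no entry. Distances are genomic. Percentiles count tied values at their middle. Shared peaks were matched within a gene and strand, largest overlap first. Named were the members, their relatives, pathway genes with peaks in both lists, up to 4 per list with a peak in a single list (EP300 was the fourth for Notch), and the 3 genes most alike in fold; some genes that this rule names are left out here. Exon classes, protein sequences and any test over the 2 lists were not run. Overlap matching was tested on single-block peaks of replicate 1 set against copies of them shifted along the chromosome. Matching of spliced peaks was not covered by that test. Alternatives were other overlaps, the 50% of peaks with the smallest p, each list alone, scaled folds, other reference sets for ranks, and peak edges. Computations ran in Python 3.11.15 with pandas 2.3.3 and numpy 2.4.6, and plots were drawn with matplotlib 3.10.9.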

Additional observations from a re-analysis of the deposited data

How the results depend on the processing

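Of 57 values recomputed under an alternative, 46 stayed within the spread between the lists, or within 1.5 times for counts, and 11 moved. None changed sign past a 1.5-fold difference. For percentiles, lengths and positions, each list alone gives an end of that spread, so those values stayed within it by construction. Scaling the folds shifts the log2 ratio of every shared peak by the same amount. The 46 of 57 is therefore no measure of robustness. With 80% of both peaks required, the members with a shared peak fell from 3 to 1 (DVL2). The mean fold percentile of GSK3B, 91.5 with all peaks, was 91.0 among shared peaks and 85.5 among peaks of like length; that of the 5'-end peak of DVL2 was 64.4 among peaks of like length. Measured from the peak edge in place of the midpoint, the mean distance to the 5' end was 75 nt for GSK3B, 73.0 nt for MAML1, and 18.0 nt and 8250 nt for the 5'-end and 3'-side peaks of DVL2, smaller by construction. With the 50% of peaks with the smallest p in each list, 11 Wnt and 6 Notch genes had peaks in both lists, against 17 and 10, from fewer peaks by construction. Without replicate 1 or 2, the counts in the remaining list ranged from 20 to 26 for Wnt and from 12 to 15 for Notch. No paired analysis was possible because input values were not analysed here, which leaves 1 group. The lists hold no read depth, so the effect of depth on the calls was not tested.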

Other observations

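Most edges of the members' peaks differed between the lists by 0 nt or by close to a multiple of 30 nt. In GSK3B both edges differed by 90 nt, in MAML1 by 30 nt and 90 nt, and at the 5' edge of the DVL2 5'-end peak by 30 nt; the 3'-side DVL2 peak differed by 29 nt at 1 edge and 0 at the other. The other edge of the DVL2 5'-end peak differed by 3926 nt of genomic distance, where the replicate 2 peak is spliced. Among the 1326 shared pairs in which both peaks had a single block, 96.1% of the 1853 edges that moved by more than 1 nt did so by a multiple of 30 nt, within 1 nt.

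Fold values recurred. The replicate 1 fold of MAML1, 13.4, was found at 6 peaks of that list, and its replicate 2 fold, 31.6, at 17 peaks. Of the 9 members' folds, 4 (both of MAML1, the replicate 1 fold of GSK3B and the replicate 1 fold at the 5' end of DVL2) were, to the printed digits, the most frequent fold of the list (7.42 or 6.33) multiplied by p/q, with whole p and q of at most 10. The same held for 28.8% of all peaks of replicate 1 and 32.5% of replicate 2, and for 65.4% and 68.6% of the peaks at or above the upper quartile of fold.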
